A study of Zea mays with 6 samples.

Results

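The genes described here are 10 nuclear photosystem and light-harvesting genes of maize, out of 109715 gene identifiers in each deposited table. They were selected on the leaf, stem and root FPKM of these libraries, with their drought and control values in view, and every one of them was found in all tables. The RNA-seq libraries came from 3 organs (leaf, stem and root) of ZD619, a maize variety described as drought resistant in the field. The drought plants had water withheld until the soil had dried and were then held at low soil water, and the control plants were kept well watered. All plants were wild type, grown in pots in a greenhouse, and the labels give the stage of 2 to 3 leaves for each sample. The study, however, gives that stage for the choice of the plants kept in each pot. It withheld water from seedlings 3 weeks old and pictures ZD619 under both treatments at a later leaf stage. The labelled stage may therefore not be the stage at sampling. There was 1 library per tissue and treatment, 6 in all, from RNA of several plants each, so no value has an error between replicates and no test within a tissue or between tissues was possible. A drought effect shared by the tissues was not tested, since these values chose the genes. FPKM counts the fragments of a gene per kilobase of its transcript and per 1000000 mapped fragments, so levels of different genes can be compared within a library. Each tissue has a table of its own. Levels set side by side across tissues therefore rest on tables that may have been normalized separately.

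Photosystem II and photosystem I are the pigment-protein complexes of the chloroplast membrane that use light to move electrons from water towards ferredoxin. Antenna proteins coded by the Lhcb genes bind chlorophyll and pass excitation energy to photosystem II. The main antenna is LHCII, which forms trimers, and the minor antenna proteins CP29, CP26 and CP24 link the trimers to the photosystem core. Maize is a C4 plant, in which mesophyll chloroplasts hold most of the photosystem II and bundle sheath chloroplasts are poor in it. By role, the 10 genes were 2 LHCII antenna genes (cab48 and lhcb3), 4 minor antenna genes (psb29, lhcb4, lhcb5 and lhcb6), 2 genes of photosystem II proteins (PSBQ1 and psbs1) and 2 photosystem I genes (psad1 and psa6). All of these names come from the reference gene table, which matched 10 of the 10 identifiers.

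FPKM summed to between 544251 and 908668 per library. A single gene, GRMZM2G581850, held 9.55% of the sum in root drought and was listed at 0 in the other libraries. The labelled tissues were checked against marker genes. Of 8 C4 enzyme markers of leaf, 6 carry a name in the reference. The mesophyll markers pep1, pdk1 and mdh6 summed to 5015 FPKM in leaf drought and 13298 in leaf control, and to 3368 in stem drought and 3786 in stem control. In root these sums were 8.92 FPKM in drought and 14.2 in control. The 3 meristem genes kn1, lg3 and lg4, taken as stem markers, summed to 0 FPKM in stem drought and 0.0368 in stem control, so these markers were near or at 0 in both libraries labelled stem. Their sums were 22.04 FPKM in root drought and 31.2 in root control. The root markers rtcs1 and rth3, 2 of 6 found, summed to 58.3 FPKM in root drought and 15.02 in root control, against 10.2 FPKM or less in leaf and stem. The libraries labelled stem thus held abundant C4 enzyme transcripts and next to none of these 3 meristem transcripts. kn1 was listed at 0 in all 6 libraries, and lg3 and lg4 were at 0 in leaf as well and highest in root. These 3 genes therefore did not set stem apart from leaf here.

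In leaf, all 10 genes had a lower FPKM in drought, and 8 of them fell by more than 2-fold. Lower and higher refer to FPKM + 0.1, and fell and rose are used of single genes past a fold of 2. The largest ratios among the abundant genes were those of lhcb6, lhcb3 and psad1. By contrast, psbs1 and lhcb4 stayed within 2-fold. Of the 37063 leaf genes that averaged 0.1 FPKM or more over the pair (the genes kept), 14.4% fell past 2-fold. Among the 1484 leaf genes that reached 100 FPKM in either treatment, 23.0% fell, and among these were 6 of the 8 photosystem genes of that level. These values chose the members and are given as a description.

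**Figure D1:**
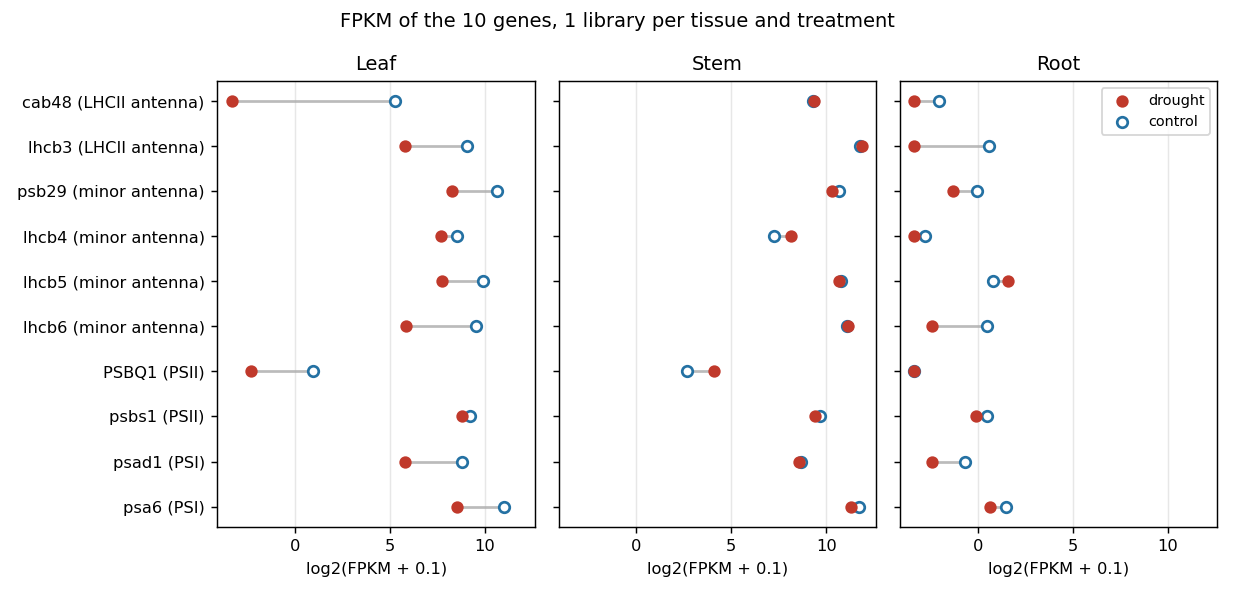
FPKM of the 10 genes on a log2(FPKM + 0.1) axis in leaf, stem and root, with filled points for drought and open points for control, 1 library each. In leaf every filled point lies left of its open point, in stem the points of most genes nearly coincide, and in root all points lie at or below 2.95 FPKM.

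The 2 LHCII genes had the lowest share of their control level left in the summed leaf values. lhcb3 (GRMZM2G155216), also listed as cab-m9, codes for an LHCII trimer protein. It had 54.6 FPKM in leaf drought, against 523 in leaf control, a log2 fold change of -3.26. cab48 (GRMZM2G120619), an LHCII gene, was listed at 2.90e-05 FPKM in leaf drought, against 38.9 in leaf control. Such a value is far below the 5th percentile of the values above 0 in that library, 0.0866 FPKM, and 186 genes of leaf drought lay between 0 and 0.001 FPKM. No fold is given for cab48 here, because its size would be set by the value added before taking the ratio. It was past 2-fold with 0.01, 0.1 or 1 FPKM added, and is counted among the 8 genes that fell. LHCII genes are a family of close copies, and fragments that match several copies can be shared out unevenly. The reference gives the name LHCP both to cab48 and to Cab-m7 (GRMZM2G402936). Summed over cab48, lhcb3, Cab-m7 and cab-m1, the LHCII genes had 769 FPKM in leaf drought and 2390 in leaf control, a log2 fold change of -1.64. The sum was thus also lower in drought, by less than lhcb3 alone. It was also lower by less than the summed photosystem I genes (log2 fold change -2.54) and the summed minor antenna genes (-2.22). The low share left in the 2 LHCII genes therefore did not extend to the sum of 4. Within that sum, Cab-m7 had 677 FPKM in leaf drought, with a leaf log2 fold change of -0.99. The other added gene, cab-m1, had 37.1 FPKM in leaf drought, with a log2 fold change of -3.71, so its fall was larger than that of lhcb3.

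The minor antenna genes differed among themselves in leaf. lhcb6 (GRMZM2G092427), which codes for CP24, had 58.1 FPKM in leaf drought, against 747 in leaf control, a log2 fold change of -3.68. This was the largest change among those of the 10 genes above 100 FPKM in leaf control. psb29 (GRMZM2G033885), which the reference also names cp29, had 307 FPKM in leaf drought and 1594 in leaf control (log2 fold change -2.37). lhcb5 (GRMZM2G149428), the gene of CP26, had 214 FPKM in leaf drought and 948 in leaf control (log2 fold change -2.15). Both fell, and both were still above lhcb4 in leaf drought. lhcb4 (GRMZM2G103101), by its name a further gene of the CP29 type, had 206 FPKM in leaf drought and 373 in leaf control, a log2 fold change of -0.86 that is within 2-fold. The ratio of lhcb4 to psb29 within a library was 0.671 in leaf drought, against 0.234 in leaf control.

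Of the photosystem II genes, PSBQ1 (GRMZM2G021617), listed also as OEE3, codes for a small outer protein of the oxygen-evolving complex. It had 0.103 FPKM in leaf drought, against 1.82 in leaf control, which is low beside the other genes in both libraries. Its log2 fold change of -3.24 depends on the value added, and it was -1.36 with 1 FPKM added to both values. psbs1 (GRMZM2G077333) codes for PsbS, which senses the acidity of the lumen and switches on the release of excess excitation as heat. It had 436 FPKM in leaf drought and 592 in leaf control, a log2 fold change of -0.44. This was the smallest change of the 10 genes in leaf, and psbs1 had the highest FPKM of the 10 in leaf drought. In leaf control, psa6, psb29, lhcb5 and lhcb6 were above it.

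Both photosystem I genes fell in leaf. psad1 (GRMZM2G024150) codes for the PsaD subunit on the stromal side, where ferredoxin docks. It had 55.0 FPKM in leaf drought, against 446 in leaf control, a log2 fold change of -3.02. psa6 (GRMZM2G012397), named for photosystem I in the reference, had 373 FPKM in leaf drought and 2046 in leaf control (log2 fold change -2.45). It was the most abundant of the 10 genes in leaf control. Summed over both, the photosystem I genes kept 17.2% of their control FPKM in leaf drought, the minor antenna genes 21.4% and the 2 LHCII genes 9.73%. For the 2 photosystem II genes, nearly all of it psbs1, the share was 73.5%.

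The median log2 fold change was -2.74 over the 10 genes in leaf, -0.01 over all leaf genes kept and -0.46 over those of at least 100 FPKM. Without cab48 the median was -2.45. The C4 markers were also lower in leaf drought, with a log2 fold change of -1.41 for the summed mesophyll markers and -1.12 for the summed bundle sheath markers me3 and both rbcS genes. Whether a drought leaf had fewer mesophyll cells or less of this RNA per cell cannot be told apart in bulk RNA, and the part of the marker change in the fall of the photosystem genes was not tested.

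In stem, no photosystem gene fell past 2-fold and 1, PSBQ1, rose. Over all 36265 stem genes kept, 15.2% fell and 15.8% rose past 2-fold. The median log2 fold change of the 10 genes was -0.04, beside 0.06 over all stem genes kept and 0.36 over those of at least 100 FPKM. There were 5 genes above 0 and 5 below. The range was -0.45 to 1.39.

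The stem antenna genes were abundant under both treatments. lhcb3 had 3713 FPKM in stem drought and 3517 in stem control. cab48 had 655 FPKM in stem drought and 619 in stem control, so it was not near the smallest values there. How fragments were shared among the LHCII copies in stem was not checked. lhcb6 had 2269 FPKM in stem drought and 2189 in stem control. These antenna genes had log2 fold changes between 0.05 and 0.08. psb29 had 1280 FPKM in stem drought and 1619 in stem control (log2 fold change -0.34). lhcb5 had 1595 FPKM in stem drought and 1739 in stem control (log2 fold change -0.13). lhcb4 had the largest stem change of the minor antenna genes, with 285 FPKM in stem drought and 150.4 in stem control, a log2 fold change of 0.92 that is just under 2-fold.

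PSBQ1 had 16.7 FPKM in stem drought, against 6.32 in stem control, a log2 fold change of 1.39. It was the least abundant of the 10 genes in both stem libraries, as it was in leaf control. psbs1 had 686 FPKM in stem drought and 815 in stem control (log2 fold change -0.25). Of the photosystem I genes, psad1 had 378 FPKM in stem drought and 411 in stem control (log2 fold change -0.12). psa6 had 2486 FPKM in stem drought and 3396 in stem control (log2 fold change -0.45), the most negative value of the 10 genes in stem.

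Set against each other, the leaf response was below the stem response for 10 of 10 genes. The difference of the log2 fold changes, leaf minus stem, had a median of -2.47 over the 10 genes and of -0.07 over the 32942 genes kept in both tissues. Over the 892 genes that reached 100 FPKM in both tables, the median difference was -0.77. The differences were not tested, since there is 1 library per group. psbs1 had the smallest difference, -0.19, and lay nearly alike in both tissues. lhcb4 followed with -1.78. psa6, lhcb5 and psb29 lay between -2.00 and -2.04, psad1 at -2.90, lhcb3 at -3.33 and lhcb6 at -3.73. For PSBQ1 the difference was -4.63, at low FPKM.

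**Figure D2:**
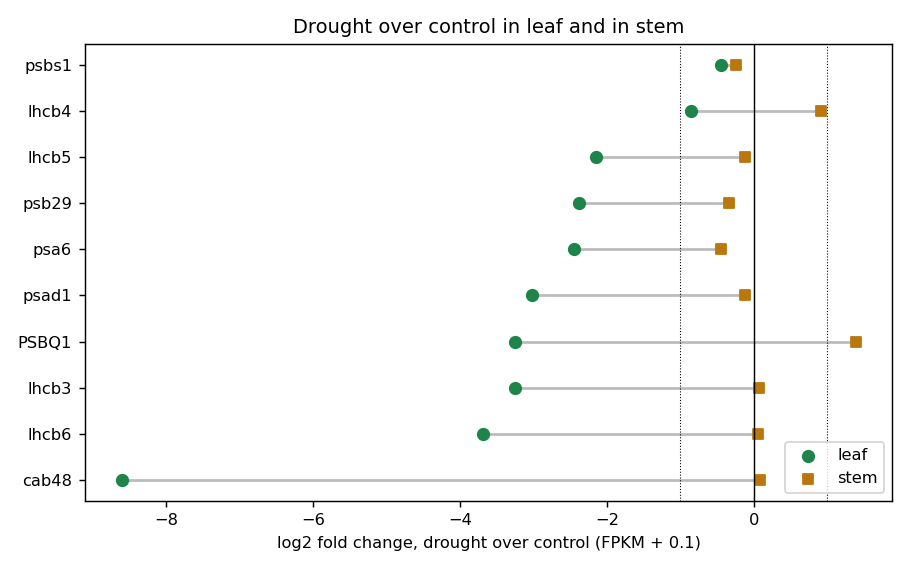
Log2 fold change of drought over control on FPKM + 0.1 in leaf (circles) and in stem (squares), 1 row per gene, ordered from the smallest to the largest leaf change, with dotted lines at a fold of 2. The stem squares lie near 0 except for lhcb4 and PSBQ1, whereas 8 leaf circles lie left of -1, and the circle of cab48 is placed by the added 0.1 FPKM.

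Levels between leaf and stem were compared by the rank of a gene among all genes of its library, which needs no scale shared by the tables. psa6 was at rank 164 in leaf drought and 26 in leaf control, and at rank 13 in stem drought and 8 in stem control. lhcb3 was at rank 2363 in leaf drought and 157 in leaf control, and at rank 6 in stem drought and 7 in stem control. lhcb3 thus stood among the 10 highest genes of both stem libraries and of neither leaf library. lhcb6 was at rank 2174 in leaf drought and 108 in leaf control, and at rank 15 in stem drought and 21 in stem control. psbs1 kept its place, with rank 131 in leaf drought and 140 in leaf control, and rank 97 in stem drought and 80 in stem control. Among the 100 highest genes were 0 of the 10 in leaf drought and 3 in leaf control, and 6 in stem drought and 6 in stem control. Their part of the summed FPKM was 0.242% in leaf drought and 0.895% in leaf control, against 1.85% in stem drought and 2.11% in stem control.

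**Figure D3:**
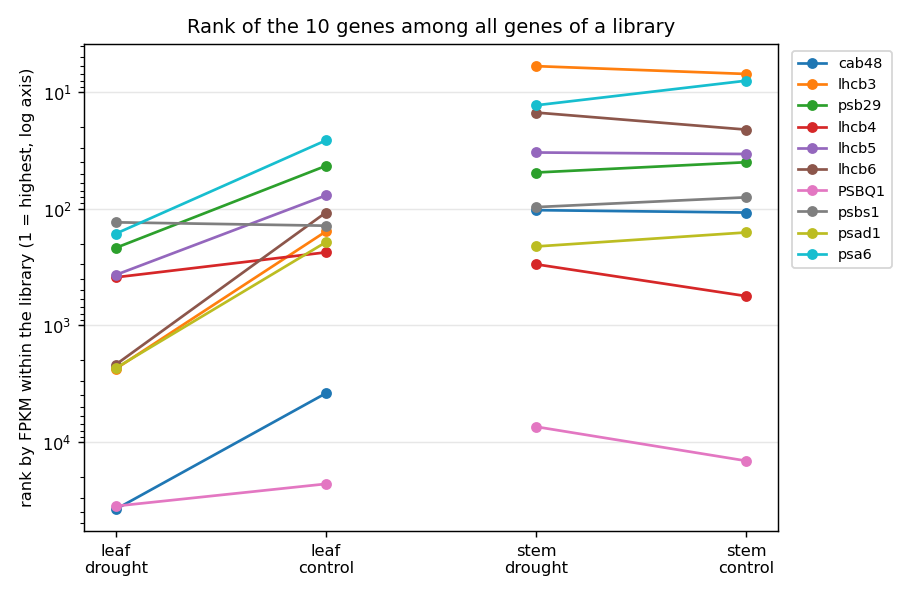
Rank by FPKM of each of the 10 genes within leaf drought, leaf control, stem drought and stem control, on a log axis with rank 1 at the top, with lines joining both treatments of a tissue. In leaf most lines climb from drought to control, with psbs1 almost level, and in stem the lines are close to level except for lhcb4 and PSBQ1.

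By FPKM, 8 of the 10 genes were lower in leaf control than in stem control, and 10 of 10 were lower in leaf drought than in stem drought. The exceptions in control were lhcb4, with 373 FPKM in leaf and 150.4 in stem, and psad1, with 446 in leaf and 411 in stem. psb29 was nearly alike in control, with 1594 FPKM in leaf and 1619 in stem. The widest gap in control was that of cab48, at 38.9 FPKM in leaf and 619 in stem, followed by lhcb3, at 523 in leaf and 3517 in stem. Next came PSBQ1, at 1.82 FPKM in leaf and 6.32 in stem, and lhcb6, at 747 in leaf and 2189 in stem. In control, both summed sets of C4 markers lay the other way. The summed mesophyll markers had 13298 FPKM in leaf control and 3786 in stem control, and the summed bundle sheath markers had 6104 in leaf control and 4589 in stem control. Among these, the rbcS gene GRMZM2G098520 was lower in leaf control, at 1608 FPKM against 2301 in stem control. In drought the mesophyll sum was higher in leaf, at 5015 FPKM against 3368 in stem, although pep1 was lower in leaf, at 583 against 1151. The bundle sheath sum in drought was lower in leaf, at 2804 FPKM against 4763 in stem.

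Ratios within a library need no scale between tables, but they compare a gene with psad1 and do not give levels between tissues. lhcb3 relative to psad1 was 0.994 in leaf drought and 1.17 in leaf control, against 9.83 in stem drought and 8.55 in stem control. lhcb6 relative to psad1 was 1.06 in leaf drought and 1.67 in leaf control, against 6.005 in stem drought and 5.32 in stem control. Both ratios were thus several-fold lower in leaf than in stem and moved less with drought than between tissues. lhcb5 relative to psad1 behaved otherwise, at 3.88 in leaf drought and 2.12 in leaf control, and 4.22 in stem drought and 4.23 in stem control. psa6 relative to psad1 was 6.79 in leaf drought and 4.58 in leaf control, and 6.58 in stem drought and 8.26 in stem control. All 6 antenna genes over both photosystem I genes gave 1.96 in leaf drought and 1.70 in leaf control, and 3.42 in stem drought and 2.58 in stem control.

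**Figure D4:**
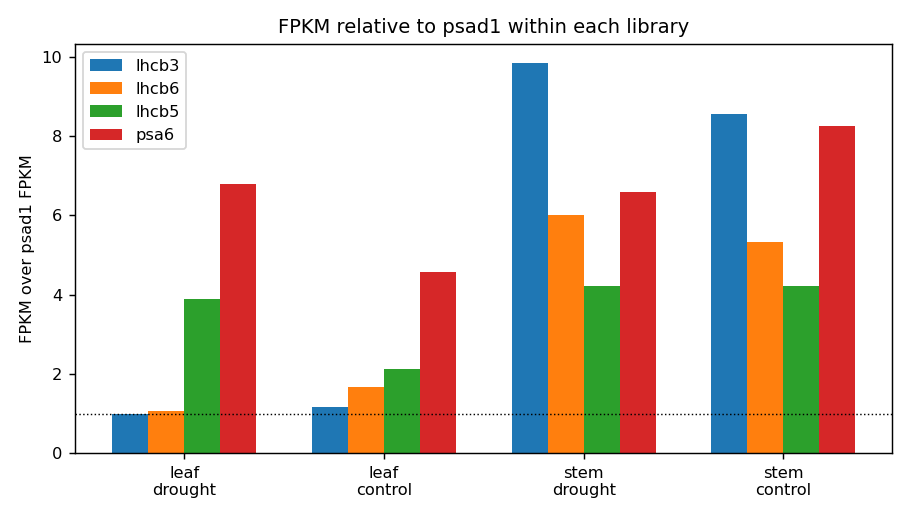
FPKM of lhcb3, lhcb6, lhcb5 and psa6 divided by the FPKM of psad1 in the same library, for leaf drought, leaf control, stem drought and stem control. The bars of lhcb3 and lhcb6 are under 2 in both leaf libraries and over 5 in both stem libraries.

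In root all 10 genes were low, at 0 to 2.95 FPKM in drought and 0 to 2.71 in control, and 7 of them had a mean of at least 0.1 FPKM. The other members, cab48, lhcb4 and PSBQ1, were under that limit, and PSBQ1 was listed at 0 in both root libraries. lhcb3 was listed at 0 in root drought and had 1.42 FPKM in root control. lhcb6 had 0.0923 FPKM in root drought and 1.33 in root control. These and psb29 and psad1 were the 4 of 7 genes that fell past 2-fold, beside 16.1% of the 37859 root genes kept. lhcb5 was alone above 0 among the 7, with 2.95 FPKM in root drought and 1.68 in root control. psa6 had 1.46 FPKM in root drought and 2.71 in root control. The median log2 fold change was -1.24 over the 7 genes and 0.27 over all root genes kept. Several of these root levels lie near the smallest values above 0 in the tables, and with 1 FPKM added to both values 2 genes fell. With only genes of a mean of at least 1 FPKM, 0 fell. With each library rescaled to the same sum, all 7 fell, with a median of -1.89.

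The reference names 6 further genes with photosystem or antenna symbols, taken with earlier results of these data known. Such symbols do not separate subunits from assembly proteins, and PSA2 and PSA3 are not shown here to be subunits. In leaf all 6 were lower in drought, 2 of them past 2-fold, with a median log2 fold change of -0.95. The antenna gene cab-m1 (GRMZM2G351977) fell to 37.1 FPKM in leaf drought, against 486 in leaf control. Its log2 fold change of -3.71 was close to that of lhcb6, -3.68. psaH (GRMZM2G451224), a small photosystem I subunit, fell to 599 FPKM in leaf drought, against 2127 in leaf control. Cab-m7 and psaN had leaf log2 fold changes of -0.99 and -0.90. PSA2 and PSA3 had the smallest leaf changes of the 6, -0.82 and -0.85, and the median includes them. In stem 0 of the 6 passed 2-fold in either direction, with a median of -0.12. At the median, the 6 genes were lower in leaf drought by less than the 10. The 10 were chosen with these values in view, so this difference is given as a description only.

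Electron transport and ATP synthase were represented by 9 genes by symbol. In leaf 2 fell and 2 rose past 2-fold, beside 14.4% falling and 15.1% rising of all leaf genes kept, and in stem 3 fell and 0 rose, beside 15.2% falling and 15.8% rising of all stem genes kept. With 9 genes in the list, these counts are near those shares and are not read as a result about it. The leaf median of the list was -0.94, with 7 genes below 0 and 2 above, beside a median of -0.01 over all leaf genes kept. Its stem median was -0.33. The leaf genes that fell were FDX6 (GRMZM2G106190), a ferredoxin, with 9.61 FPKM in leaf drought and 32.1 in leaf control, and atpc1 (GRMZM5G862663), of the ATP synthase, with 196 in leaf drought and 519 in leaf control. The ferredoxin gene fdx3 (GRMZM2G053458) rose to 118 FPKM in leaf drought, against 48.8 in leaf control. One PGR5 gene (GRMZM2G017045), of cyclic electron flow around photosystem I, rose to 272 FPKM in leaf drought, against 132 in leaf control. The second PGR5 gene (GRMZM2G121494) had 20.8 FPKM in leaf drought and 33.3 in leaf control, so the pair did not move together. Not all of this list is specific to leaf: in drought, fdx3 had 465 FPKM in root and 118 in leaf, FDX6 98.8 in root and 9.61 in leaf, and fnr1 (GRMZM2G058760) 267 in root and 5.33 in leaf. Of 8 Calvin cycle and Rubisco genes, 5 fell and 1 rose in leaf, and 2 fell and 0 rose in stem. In leaf the falling share was above the 14.4% of all genes kept and the 23.0% of those of at least 100 FPKM. In stem it was nearer the 15.2% of all genes kept. Both genes that fell in stem, rca3 (GRMZM2G162282) and Pgk-1 (GRMZM2G047028), were low, at 3.03 FPKM or less in stem. With 8 genes, these counts are small. The 1 that rose in leaf, also rca3, was low, with 4.34 FPKM in leaf drought and 0.447 in leaf control. The leaf median of that list was -1.28 and its stem median -0.48.

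By symbol, 5 genes were taken for chlorophyll synthesis and chloroplast development, among them elm1, which is not shown here to act in either. In leaf 1 fell, the transcription factor gene glk1 (GRMZM2G026833), and 0 rose. In stem 0 fell and 1 rose. Over all genes kept, 14.4% fell in leaf and 15.8% rose in stem, so with 5 genes these counts are near the background. The gene that rose was pcr1 (GRMZM2G084958), named for protochlorophyllide reductase, the light-requiring step of chlorophyll synthesis. It had 4797 FPKM in stem drought and 1674 in stem control, and 85.7 FPKM in leaf drought and 61.8 in leaf control. pcr1 was therefore far more abundant in the libraries labelled stem than in leaf. ChlI (GRMZM2G419806), a subunit of magnesium chelatase also known as oy1, had 80.5 FPKM in leaf drought and 154 in leaf control, and 255 in stem drought and 145 in stem control. The symbols taken for photosystem assembly gave 3 genes, hcf106, Hcf106C and hcf60, which are not shown here to be assembly proteins. hcf60 was low, at 0.431 FPKM or less in leaf and stem. In leaf 1 of the 3 fell, and in stem 0 passed 2-fold. Over all genes kept, 14.4% fell in leaf, and 15.2% fell and 15.8% rose in stem. With 3 genes, these counts are not read as a result.

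**Figure D5:**
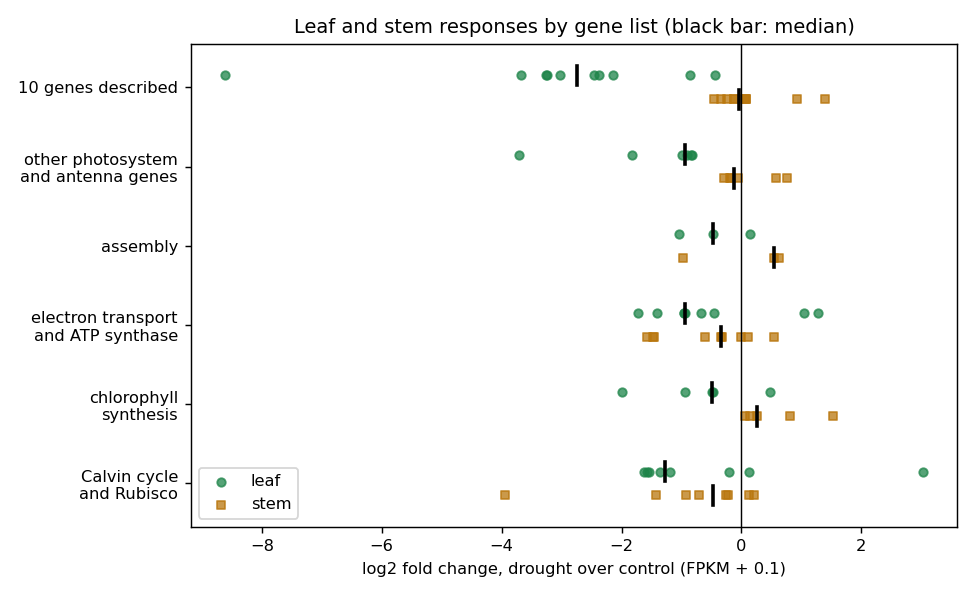
Log2 fold change of drought over control on FPKM + 0.1 in leaf (circles) and stem (squares) for the 10 genes and 5 lists of further genes taken by symbol, 1 point per gene kept, with a black bar at each median. The leaf median is below the stem median in every list. The same holds over all genes kept (-0.01 in leaf, 0.06 in stem) and over those of at least 100 FPKM (-0.46 in leaf, 0.36 in stem).

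The genes most like the 10 in pattern were sought by the Pearson correlation of log2(FPKM + 0.1) with the mean of the 10 genes over the 6 libraries, among 18706 genes of at least 10 FPKM in 1 library. The 5 highest that were not members had an r between 0.9965 and 0.9982, which describes 6 points that mostly separate root from shoot. They were GRMZM2G323024, GRMZM2G036880, GRMZM2G172723, GRMZM2G056120 (ARF11) and GRMZM2G026833 (glk1, also G2-like1). GRMZM2G036880 had 47.0 FPKM in leaf drought and 455 in leaf control, and 739 in stem drought and 613 in stem control. glk1, a transcription factor gene, had 1.92 FPKM in leaf drought and 7.93 in leaf control, and 20.6 in stem drought and 18.7 in stem control. ARF11 had 12.8 FPKM in leaf drought and 15.7 in leaf control, so a high r did not require a leaf fall of the size seen in the 10. Within the 10 genes the same r was lowest for cab48, at 0.857, and highest for lhcb6, at 0.9959.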

How the data were processed

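Total RNA from leaf, stem and root of ZD619 was made into poly(A) libraries and sequenced on an Illumina instrument. By the methods, TopHat placed the reads on the B73 genome and Cufflinks and Cuffdiff followed, and versions and genome release are not given in the sources used here. The unit of the deposited values was inferred to be FPKM, since the headers name none. The log2 ratios deposited beside them were not used. No column lacked a sample. The tables give no read counts, and the number of reads per library that the study states is not used here. Among genes under 0.3 FPKM in sum the ratio of a leaf pair gathered in a window of 0.1 for only 13.4% of 1705 genes, so reads could not be recovered.

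Log2 fold changes were drought over control within a table, with 0.1 FPKM added to both values, for genes that averaged 0.1 FPKM or more in the pair. A fold of 2 was counted, with no p-value, since each group holds 1 library. Names came from the RefSeq gene table of Zm-B73-REFERENCE-NAM 5.0, whose build differs, so no position was used. It matched 18777 identifiers (17.1%). Lists were taken by symbol, and 45 genes whose symbols stand for other functions were left out after the tables were seen. The members and lists were chosen with earlier results of these data known. The named genes were the 10 members, the largest changes of a list where a result turns on them, and the 5 genes most like the members. psaH, Cab-m7, psaN, PSA2, PSA3, atpc1, both PGR5 genes, rca3 and the level of fnr1 in root were named after their values were seen. The same holds for Pgk-1, Hcf106C, hcf60 and elm1. Alternatives were other pseudocounts, filters, scalings and a fold of 4. One planned marker gene is not reported here. The planned count of promoter motifs was not run, since no sequences were used here. Counting steps were tested on simulated data. Python 3.11.15, numpy 2.4.6, pandas 2.3.3 and matplotlib 3.10.9 were used.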

Additional observations from a re-analysis of the deposited data

Results flagged for a closer look

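For 5 of the 10 genes the single leaf pair and the single stem pair moved in opposite directions, lower in drought in leaf and higher in drought in stem. Over the 32942 genes kept in both tissues, 28.6% showed these signs. With each library rescaled, or with fold changes centred on the median gene, 4 of the 10 genes showed them, without lhcb6, beside 20.6% and 26.7% of all genes. The difference between leaf and stem was not tested in any of them. Leaf minus stem, the log2 fold changes differed by -3.73 for lhcb6 and by -3.33 for lhcb3, both with stem values within 0.08 of 0. The difference was -1.78 for lhcb4, where neither tissue passed 2-fold, and -4.63 for PSBQ1, which had 1.82 FPKM or less in leaf. For cab48, whose stem log2 fold change was 0.08, it was -8.69, a size set by the 0.1 FPKM added, because its leaf drought value lay under 0.001 FPKM. With 1 FPKM added, the leaf log2 fold change of cab48 was -5.32, and with 0.01 FPKM added it was -11.92.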

How the results depend on the processing

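No group has a second library, so no replicate could be left out. Within a tissue no paired analysis was possible because each tissue and treatment holds 1 library, and a fit with the tissues as pairs was not run, since these values chose the genes. Of 58 recomputed values, 37 stayed within 0.1 on the log2 scale or, for counts, within 1.5 times, and 0 changed the sign of a median past 2-fold. The leaf count of 8 falling genes was 7 or 8 under each alternative, and the stem count of falling genes was 0 under each. The leaf median of -2.74 became -2.41 with 1 FPKM added, -2.45 with a filter at 1 FPKM or without cab48, and -2.52 with each library rescaled to 1000000 in sum. The leaf minus stem median of -2.47 became -2.33 with 1 FPKM added, -2.04 with a filter at 1 FPKM or without cab48 (-2.035 in both) and -2.17 after rescaling. The count of 1 rising gene in stem became 0 at a fold of 4.

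The root values depended most on the settings. The root median of -1.24 became -1.46 with 0.01 FPKM added, -0.51 with 1 FPKM added, -1.04 without a filter and -0.58 with a filter at 1 FPKM. It became -1.89 after rescaling, -1.84 after rescaling without GRMZM2G581850 and -1.51 after centring. The 4 falling root genes became 2 with 1 FPKM added or at a fold of 4, 0 with a filter at 1 FPKM and 7 after either rescaling. Rescaling without GRMZM2G581850, the exclusion of cab48 the sum of LHCII genes and the count of genes with opposite signs in leaf and stem were chosen after seeing the data.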
